A study of Mus musculus with 12 samples.

Results

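Histone genes and histone variants were followed through knockdown of p400 and of Tip60 in embryonic stem cells of the mouse. Members were all probes whose gene name on the array begins with Hist1h, Hist2h, Hist3h, Hist4h, H1f, H2af, H2bf or H3f, which gave 67 of 41174 probes, under 47 of 27962 gene names. Of these, 44 probes of 34 gene names belong to the replication-dependent histone clusters (names beginning with Hist) and 23 probes of 13 gene names to the variants. No probe name began with H2bf.

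The cells, of the embryonic stem cell line E14, were transfected by lipofection for 72 hr with 0.33 ng/µl esiRNA, a mixture of short interfering RNAs made by cutting a long double-stranded RNA. The esiRNA targeted p400 (Ep400, an ATPase that exchanges histones in nucleosomes) in 4 samples, Tip60 (Kat5, a histone acetyltransferase of the same complex) in 4 samples, or the reporter EGFP in control cells, which thus shared the transfection but not the target. The p400 RNA was hybridised on 4 2-colour arrays against EGFP RNA, with p400 RNA in Cy5 in replicates 1 and 3 and in Cy3 in replicates 2 and 4, all on slide 1. The 4 Tip60 samples and 4 EGFP samples were hybridised alone in Cy3, and slides 2 and 3 each held 2 Tip60 and 2 EGFP arrays. Tip60 replicate 3 was left out of the comparison, as the submitters did. The EGFP RNA of the 2-colour arrays and the single-colour EGFP arrays are separate samples by their labels. Whether they share an RNA preparation was not tested. The design calls the replicates biological, but the labels do not tie them to separate transfections, so the p-values measure the spread between these samples.

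The brightest Ep400 probe fell by 0.58 on the log2 scale in p400 knockdown (adjusted p = 0.0052, limma). Another 2, dimmer, gave -0.72 (adjusted p = 0.0057) and 0.22 (adjusted p = 0.079). The Kat5 probe fell by 1.49 in Tip60 knockdown (adjusted p = 1.5e-05) and by 0.43 in p400 knockdown (adjusted p = 0.011). Between 22188 and 30752 of 43379 spots per RNA were well above background, the lowest count being that of Tip60 replicate 3. All 6 embryonic stem cell markers (Pou5f1, Sox2, Nanog, Zfp42, Esrrb, Tdgf1) were well above background in every RNA compared. Of these, Sox2 fell by 0.21 in each knockdown (adjusted p = 0.049 in p400 and 0.027 in Tip60 knockdown), Esrrb fell by 0.25 in p400 knockdown (adjusted p = 0.049) and Tdgf1 rose by 0.38 in Tip60 knockdown (adjusted p = 0.0043). The part of this in the histone values was not tested. In bulk RNA, a change in the share of cells of a kind and a change in RNA per cell cannot be told apart.

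Histones are the proteins around which DNA is wrapped. H2A, H2B, H3 and H4 form the core of the nucleosome, and H1 binds the linker DNA between nucleosomes. Most core and linker histones are made in S phase from clustered, intronless genes whose mRNAs end in a conserved stem-loop and not in a poly(A) tail. Variants such as H2A.Z (H2afz), the H3 variant encoded by H3f3a and H3f3b, and macroH2A (H2afy, H2afy2) come from genes outside the clusters, have polyadenylated mRNAs and are made throughout the cell cycle. The p400 and Tip60 proteins act on these products: p400 and its homologues place H2A.Z in nucleosomes, and Tip60 acetylates H4 and H2A. The RNA was amplified with a kit that, as background, starts from the poly(A) tail, so cluster mRNAs without a tail may be under-represented; the share with a tail was not measured here.

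Cluster genes are near-identical copies, and the array cannot keep all of them apart. For 14 of the 67 probes the array's annotation lists 2 or more RefSeq genes, and since that annotation holds at most 4 accessions a probe, this is a lower bound. The H2B probes below are shown because probes of 3 gene names, all risen in both knockdowns, have letters in common: the capitals mark the run of 26 bases that all 3 have in common. They lie on mm7 at chr13:21402048-21402107 (plus strand), chr13:21088259-21088318 (plus) and chr11:59035740-59035799 (minus), and Hist1h2bk and Hist1h2bm differ at 2 of 60 bases, so their values are in large part a repeat of the same measurement.
Hist1h2bk: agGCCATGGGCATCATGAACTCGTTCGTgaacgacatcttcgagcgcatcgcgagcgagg
Hist1h2bm: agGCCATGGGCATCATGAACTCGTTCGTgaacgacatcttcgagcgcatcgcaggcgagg
Hist3h2bb: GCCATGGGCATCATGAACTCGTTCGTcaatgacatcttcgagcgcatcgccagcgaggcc

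The H4 probes are shown because they rose in p400 knockdown, were not called in Tip60 knockdown and overlap in sequence; the difference between the effects was called for Hist2h4 alone of the 3. Capitals mark the 29 bases common to the 3, at mm7 chr13:22947598-22947657 (plus), chr13:22917373-22917432 (minus) and chr3:96136980-96137039 (minus).
Hist1h4d: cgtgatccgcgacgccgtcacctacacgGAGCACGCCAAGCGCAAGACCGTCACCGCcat
Hist1h4f: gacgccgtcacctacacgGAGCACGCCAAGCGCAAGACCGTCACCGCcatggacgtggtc
Hist2h4: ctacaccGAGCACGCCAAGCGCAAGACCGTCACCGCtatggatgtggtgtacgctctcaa

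The probe named for Hist1h2aa, the testis H2A gene, is shown because its first 44 bases (capitals) are also those of a Hist1h2af probe, so its signal cannot be read as that of the testis gene alone. They lie at mm7 chr13:23300592-23300651 and chr13:22900228-22900287, both on the plus strand.
Hist1h2aa: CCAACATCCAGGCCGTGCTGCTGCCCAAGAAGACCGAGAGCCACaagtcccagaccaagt
Hist1h2af: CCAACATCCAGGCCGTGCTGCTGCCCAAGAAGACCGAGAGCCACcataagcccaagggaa

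The letters of the 3′ stem-loop (the capitals in the Hist1h3a line below) occur whole in 1 of the 41174 probes, that of Hist1h3a, and a partial run occurs in 3 probes, all of them members. They are shown with the stem-loop letters in capitals because these 3 probes hold letters of the stem-loop, and only that stretch of each probe is printed. The Hist1h3a and Hist1h2ab probes run into it from upstream. The Hist1h2ae probe begins inside it, so the rest of that probe lies downstream. Whether it reads mRNA that ends at the stem-loop was not tested.
Hist1h3a: aaccaaaGGCTCTTTTCAGAGCCaca
Hist1h2ab: aaacaaaGGCTCTTTTCA
Hist1h2ae: CTTTTCAGAGCCattcact

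Values below are log2 ratios of p400 over EGFP RNA after background correction and loess, or log2 levels; fitted changes are given ± SE. In p400 knockdown, 28 of the 59 member probes tested rose and 8 fell. The test took in probes that 3 or more arrays of 1 of the RNAs had well above background, and a probe counted as called at an adjusted p, over all probes tested, under 0.05. Over all 27950 probes tested, 18.1% rose and 15.1% fell. The rises were mostly in the clusters, where 24 of 38 tested probes rose and 1 fell, with a median log2 fold change of 0.66, while among the 21 tested variant probes 4 rose and 7 fell, with a median of -0.06. The median over all tested probes was -0.00. The cluster median was 0.89, 0.26, 0.87 and 0.32 on p400 arrays 1 to 4, the lower values being those of the arrays with p400 RNA in Cy3. At least 2-fold rises made up 13 of the cluster probes and none of the variants, against 2.36% of all probes.

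In Tip60 knockdown, 14 of the 58 member probes tested rose and 4 fell, where 13.2% of the 25299 probes tested rose and 9.48% fell. All 14 rises were in the clusters (38 tested, no falls, median 0.10) and all 4 falls among the variants (20 tested, median -0.11). By array, the cluster median above the EGFP mean was -0.13, 0.47 and -0.03 on Tip60 replicates 1, 2 and 4, and the fitted cluster median was -0.09 without Tip60 replicate 2, -0.09 within slide 3 and -0.11 relative to the array median. At an unadjusted p under 0.05, limma gave 2 cluster probes lower and 0 variant probes higher. The median over all tested probes was 0.00. The 12 members that rose in both knockdowns were 42.9% of those that rose in p400 knockdown and 85.7% of those that rose in Tip60 knockdown. Over all probes tested in both, 9.06% rose in both. The 4 members that fell in both stand against 5.21% of all probes. Tip60 arrays lay wholly above EGFP arrays for 18.0% of all probes and wholly below for 16.4%, the background for each statement below that groups did not overlap. Untested in both knockdowns were 8 probes, namely 1 each of H2afy, H2afz, Hist1h1d, Hist1h2ac, Hist1h2be and Hist4h4 and 2 of Hist2h2aa2, and H1fnt was not tested in Tip60 knockdown.

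**Figure D1:**
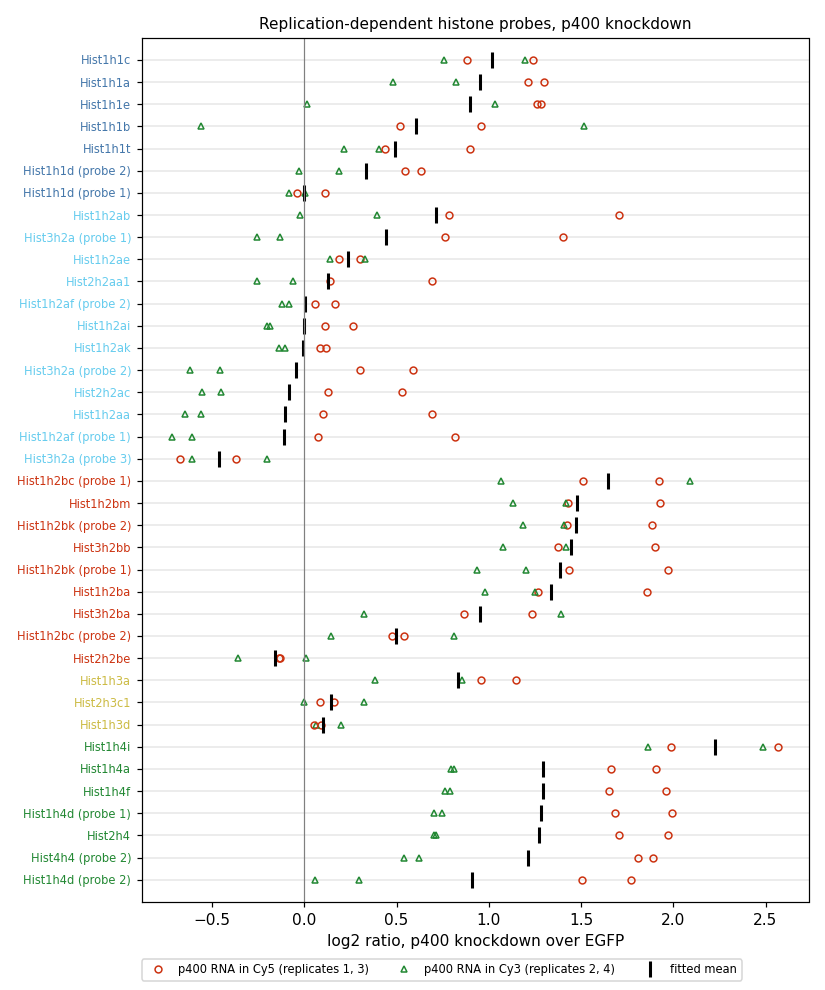
Log2 ratio of p400 knockdown over EGFP RNA (x axis) for each tested replication-dependent histone probe (rows, coloured and ordered by family H1, H2A, H2B, H3, H4), with a point per array, shaped by the dye of the p400 RNA, and a bar at the fitted mean. H2B and H4 probes lie right of 0 except for Hist2h2be, and most H2A probes have their Cy5 arrays right and their Cy3 arrays left of 0.

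H2B probes rose in both knockdowns, apart from Hist2h2be in p400 knockdown. Of the 9 tested H2B probes, 8 rose in p400 knockdown (median log2 fold change 1.39, 6 of them at least 2-fold) and 9 in Tip60 knockdown (median 0.55). Relative to the array median, 6 of the 9 were called higher in Tip60 knockdown, with a median of 0.34. Within slide 3 the Tip60 changes ran from 0.20 to 1.54, with a median of 0.45. The probe with the largest H2B rise, Hist1h2bc (A_51_P462311, mm7 chr13:23058152-23058211), gave log2 ratios of 1.92, 2.09, 1.51 and 1.06 on the 4 p400 arrays, a fitted change of 1.65 ± 0.17 (SE; 3.13-fold; adjusted p = 0.0018, limma). Its log2 level, here and for all single-colour arrays counted from the 75th percentile of the array, was 1.09, 1.01 and 1.12 on the Tip60 arrays (replicates 1, 2 and 4), against -0.61, -0.37, -0.59 and -0.53 on the EGFP arrays, a change of 1.60 ± 0.07 (3.02-fold; adjusted p = 1.1e-05). The knockdown lay above EGFP on every array, and the p400 minus Tip60 difference was 0.05 ± 0.18 (adjusted p = 0.89). A second probe of that name lies at chr13:21203334-21203393, far from the first, and rose by 0.49 ± 0.11 in p400 knockdown (adjusted p = 0.020) and by 1.53 ± 0.17 in Tip60 knockdown (adjusted p = 0.00082); the p400 call was lost without p400 replicate 2 (adjusted p = 0.065) or 3 (0.059). The Tip60 change of this dim probe was 0.51 with normexp and quantile normalization and 0.43 with the deposited value table.

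The other Hist1h2bk probe (A_51_P182358) lies beside the printed one and does not hold its letters but lists 4 RefSeq genes. It and the 3 H2B probes printed above had larger fitted changes in p400 than in Tip60 knockdown. The p400 ratios of these 4 lay between 1.38 and 1.97 on the Cy5 arrays and between 0.94 and 1.42 on the Cy3 arrays, with fitted changes from 1.39 to 1.48. On the Tip60 arrays they lay 0.41 to 0.68 above the EGFP mean, with fitted changes from 0.48 to 0.55. No array of either knockdown overlapped its control, and the difference between the effects was 0.89 to 0.97 (adjusted p from 0.032 to 0.039). Hist3h2bb is now listed by RefSeq as H2bu1-ps, the symbol of a pseudogene, and its probe also lists H2bu2, named Hist3h2ba on the array.

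Hist1h2ba encodes the testis H2B made in spermatogenic cells, and its probe gave log2 ratios of 1.26, 1.25, 1.86 and 0.98 in p400 knockdown. The fitted change was 1.34 ± 0.11 (adjusted p = 0.0012). Its level was 1.39, 1.55 and 1.37 on the Tip60 arrays, against 0.92, 1.33, 0.99 and 1.06 on the EGFP arrays, a change of 0.36 ± 0.11 (adjusted p = 0.048) that lost the call without any 1 of Tip60 replicates 1, 2 and 4 or EGFP replicates 1, 3 and 4 (adjusted p from 0.088 to 0.14). The difference, 0.97 ± 0.15, was called (adjusted p = 0.037). The probe matches that of Hist1h2bm at 35 of 40 aligned bases, with a longest run of 14, so its signal cannot be read as that of the testis gene alone.

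Hist3h2ba, of the small Hist3 cluster, rose by 0.95 ± 0.17 in p400 knockdown (ratios 0.86, 1.39, 1.23 and 0.32; adjusted p = 0.0093) and by 0.82 ± 0.07 in Tip60 knockdown (adjusted p = 0.00027). Its levels were 1.44, 1.56 and 1.55 on the Tip60 arrays, against 0.61, 0.81, 0.75 and 0.63 on the EGFP arrays. Hist2h2be of the Hist2 cluster went a separate way: its p400 ratios were -0.13, -0.36, -0.14 and 0.01 (fitted -0.16 ± 0.08, adjusted p = 0.19), while its level was -2.93, -2.93 and -2.95 on the Tip60 arrays, against -3.48, -3.49, -3.44 and -3.70 on the EGFP arrays. It rose by 0.59 ± 0.07 in Tip60 knockdown (adjusted p = 0.0015), and the difference was -0.75 ± 0.11 (adjusted p = 0.034). Hist1h2be was not well above background on enough arrays to be tested in either comparison.

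H4 genes rose in p400 knockdown and, Hist1h4i apart, did not pass the test in Tip60 knockdown. All 7 tested H4 probes rose in p400 knockdown (median 1.28) and 1 of 7 in Tip60 knockdown. Hist1h4i (A_51_P505521, chromosome 13) had the largest rise of any member in each: its p400 ratios were 1.99, 2.49, 2.57 and 1.86, a change of 2.23 ± 0.14 (4.68-fold; adjusted p = 0.00048). Its level was 3.05, 3.21 and 3.11 on the Tip60 arrays, against 1.40, 1.60, 1.53 and 1.47 on the EGFP arrays, a change of 1.63 ± 0.07 (3.09-fold; adjusted p = 7.2e-06). The arrays of each knockdown stood well clear of EGFP, and the difference of 0.60 ± 0.15 missed the threshold (adjusted p = 0.085). Its probe shares at most 8 bases in a row with any other member, unlike the H4 probes printed above. The array's annotation places only part of this probe on mm7, at chr13:21406569-21406575. Whether the whole probe matches Hist1h4i was not tested.

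The other 6 H4 probes (Hist1h4a, Hist1h4d with 2, Hist1h4f, Hist2h4 and Hist4h4) rose by 0.91 to 1.29 in p400 knockdown (adjusted p from 0.00035 to 0.0014). Their ratios ran from 1.5 to 1.99 on the arrays with p400 RNA in Cy5 and from 0.06 to 0.81 on those with p400 RNA in Cy3, so all lay above EGFP and the size depended on the dye, for which the fit has a term. For Hist1h4a, the ratios were 1.66, 0.81, 1.91 and 0.80 and the fitted change 1.29 ± 0.07 (adjusted p = 0.00038). Hist2h4 gave 1.71, 0.71, 1.97 and 0.70, and 1.27 ± 0.07 (adjusted p = 0.00039).

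In Tip60 knockdown these 6 H4 probes did not pass the test (adjusted p from 0.42 to 0.78). Hist1h4a had levels of 3.29, 3.98 and 3.37 on the Tip60 arrays, against 3.19, 3.56, 3.60 and 3.27 on the EGFP arrays, which overlapped (0.14 ± 0.19). For Hist2h4, levels of 4.09, 4.62 and 4.10 on the Tip60 arrays stood against 3.97, 4.33, 4.38 and 4.10 on the EGFP arrays (0.07 ± 0.16). The difference between the knockdowns was called for Hist1h4a (1.15 ± 0.20, adjusted p = 0.043) and Hist2h4 (1.20 ± 0.18, adjusted p = 0.034), and had adjusted p values up to 0.068 for the 5 probes without Hist1h4f. Hist1h4f stood apart because of Tip60 replicate 2, at 7.95 against 5.39 and 5.45 on the other Tip60 arrays and 5.30, 5.54 and 5.38 on the EGFP arrays, its EGFP replicate 3 spot being an outlier by the scanner's flag and left out.

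**Figure D2:**
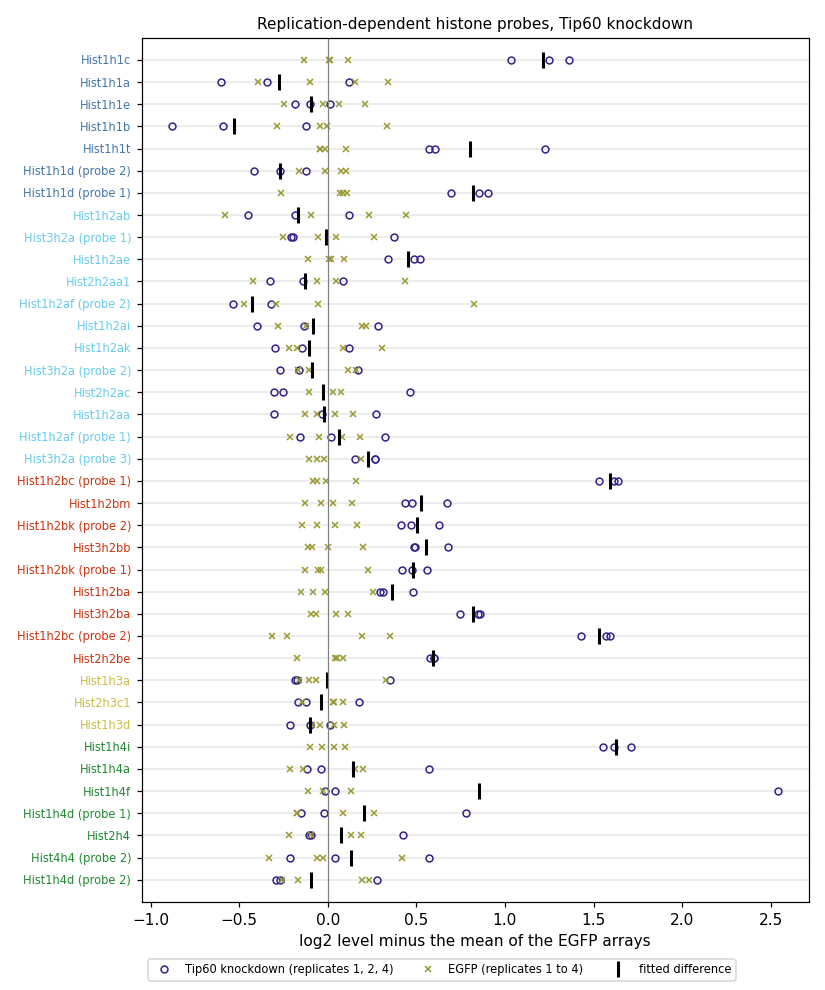
Log2 level minus the mean of the EGFP arrays (x axis) for each tested replication-dependent histone probe (rows, as in the plot of p400 ratios), with circles for the 3 Tip60 arrays, crosses for the 4 EGFP arrays and a bar at the fitted difference. All 9 H2B probes and Hist1h4i have their Tip60 arrays right of their EGFP arrays, and the other H4 probes overlap.

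Linker histone genes split by member. Hist1h1c, a linker histone made in many tissues, rose in both, with no overlap with EGFP: its p400 ratios were 0.88, 1.19, 1.24 and 0.75 (1.02 ± 0.10, adjusted p = 0.0018). Its level was 1.24, 1.02 and 1.35 on the Tip60 arrays, against -0.00, 0.11, -0.15 and 0.00 on the EGFP arrays (1.21 ± 0.10, adjusted p = 0.00016). For Hist1h1a, a linker histone of dividing cells, the effects differed (1.23 ± 0.23, adjusted p = 0.049): its p400 ratios were 1.30, 0.48, 1.21 and 0.82 (0.95 ± 0.08, adjusted p = 0.0012). Its levels of 0.66, 1.13 and 0.41 on the Tip60 arrays overlapped those of 0.91, 1.16, 1.35 and 0.61 on the EGFP arrays (-0.28 ± 0.22, adjusted p = 0.42). Hist1h1e rose by 0.90 in p400 knockdown, where replicate 2 lay at 0.01, and Hist1h1b was not called, with ratios of 0.52, -0.56, 0.96 and 1.52.

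The testis linker histone gene Hist1h1t rose in both, by 0.49 ± 0.09 in p400 knockdown (ratios 0.90, 0.41, 0.44 and 0.21; adjusted p = 0.012; 0.050 without p400 replicate 2) and by 0.80 ± 0.16 in Tip60 knockdown (adjusted p = 0.011). Its level was -3.35, -4.0 and -3.97 on the Tip60 arrays, against -4.62, -4.59, -4.47 and -4.62 on the EGFP arrays. The Tip60 change of Hist1h1t was 0.29 with normexp and quantile normalization and 0.33 with the deposited value table. The 2 tested probes of Hist1h1d, at mm7 chr13:22923327-22923386 (A_51_P501260) and chr13:22921576-22921635 (A_52_P10683), disagreed. The first was dim, with levels from -5.57 to -5.2 on the EGFP arrays. Whether both read the same mRNA was not tested. A_51_P501260 gave p400 ratios between -0.09 and 0.11 and rose by 0.82 ± 0.11 in Tip60 knockdown (adjusted p = 0.0018; difference -0.82, adjusted p = 0.037). That Tip60 call was lost with normexp and quantile normalization (0.18, adjusted p = 0.090) and with the deposited value table (0.16, adjusted p = 0.18). A_52_P10683 rose by 0.33 ± 0.07 in p400 knockdown (adjusted p = 0.016; 0.10 without p400 replicate 2) and changed by -0.27 ± 0.10 in Tip60 knockdown (adjusted p = 0.084). The remaining Hist1h1d probe lies on the other strand and was not tested.

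Of 12 tested H2A cluster probes, 3 rose (Hist1h2ab by 0.71, Hist1h2ae by 0.24 and a Hist3h2a probe by 0.44) and 1 fell in p400 knockdown, where 33.1% of all probes were called, and 1 rose in Tip60 knockdown (Hist1h2ae by 0.45, adjusted p = 0.0046). The p400 call of Hist1h2ae (adjusted p = 0.044) was made in 6 of 14 settings, with an adjusted p of up to 0.25, and the H2A rises numbered 2, 1, 2 and 2 without p400 replicates 1, 2, 3 and 4. The 8 probes not called in p400 knockdown had fitted changes from -0.11 to 0.13, but their arrays parted by dye: from 0.06 to 0.82 with p400 RNA in Cy5 and from -0.72 to -0.06 with p400 RNA in Cy3. Of the 12 H2A probes, 10 had both Cy5 arrays above both Cy3 arrays, as had 6 of 7 H4 and 4 of 9 H2B probes, against 22.9% of all probes tested. On 6 H2A probes the red channel was read on all 4 arrays from the scanner's low-sensitivity scan and scaled up, as it was for both H3 cluster probes that did not pass the test, for 10 variant probes (H2afz, H2afv, H2afx, 1 each of H2afj and H1fx, and all 5 of H3f3a and H3f3b) and for none of the H2B probes. Of the 20 members with a scaled-up spot on the p400 arrays, 4 rose in p400 knockdown and 0 were called in Tip60 knockdown. Of the members without one, 24 of 39 rose and 8 fell in p400 knockdown and 14 of 38 rose and 4 fell in Tip60 knockdown. All 20 were also scaled up on the 8 single-colour arrays, and the part of this reading in the results was not tested. With the arrays centred on their medians and no loess, 1 of the 12 H2A probes was called higher and 8 lower.

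Hist3h2a, an H2A gene of the Hist3 cluster, was called in opposite directions by different probes. A_52_P615375, at mm7 chr11:59036997-59037056, fell by 0.46 on the log2 scale in p400 knockdown (ratios -0.37, -0.20, -0.67 and -0.61; adjusted p = 0.014; 0.052 without p400 replicate 4). In Tip60 knockdown it changed by 0.23 ± 0.08 (adjusted p = 0.090; 0.025 without EGFP replicate 2), and the difference was -0.69 ± 0.13 (adjusted p = 0.047). A_51_P441377, which lies on the strand opposite to the gene, rose by 0.44 ± 0.11 with ratios of 1.40, -0.13, 0.76 and -0.26 (adjusted p = 0.026; 0.093 without p400 replicate 2). The remaining probe did not pass the test in either (p400 -0.05, Tip60 -0.09). The probe named for the testis gene Hist1h2aa gave 0.69, -0.56, 0.10 and -0.65 in p400 knockdown and overlapped EGFP in Tip60 knockdown (adjusted p = 0.49 and 0.93).

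Of the 3 H3 cluster probes, Hist1h3a, whose probe holds the stem-loop letters, rose by 0.83 ± 0.10 in p400 knockdown (ratios 0.96, 0.86, 1.14 and 0.38; adjusted p = 0.0025) and did not pass the test in Tip60 knockdown (-0.00 ± 0.17, adjusted p = 0.99). Hist1h3d and Hist2h3c1, whose probes list 4 and 3 RefSeq genes, did not pass the test in either knockdown (0.10 and 0.14 in p400 knockdown). The difference between the effects on Hist1h3a missed the threshold (adjusted p = 0.072).

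**Figure D3:**
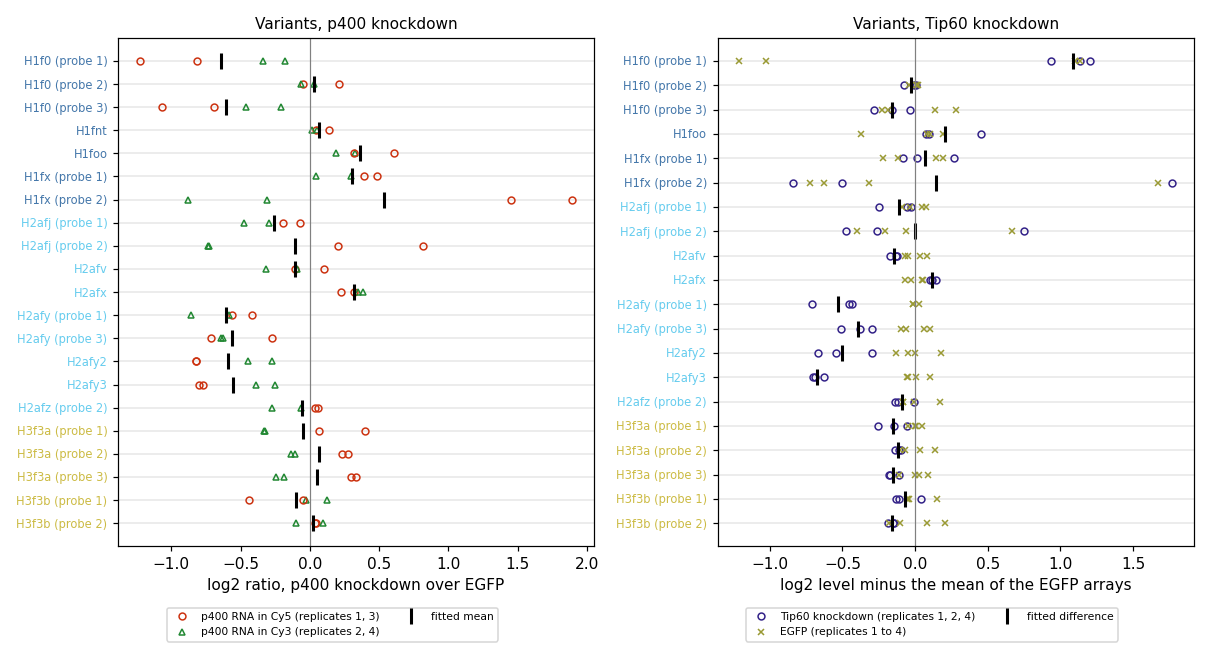
Tested histone variant probes (rows, labels coloured by family), with the log2 ratio of p400 knockdown over EGFP on the 4 arrays in the left panel and the log2 level minus the EGFP mean on the Tip60 and EGFP arrays in the right panel. The macroH2A probes (H2afy, H2afy2 and H2afy3) lie left of 0 on every p400 array and left of the EGFP arrays in Tip60 knockdown, and the fitted means of H2afz, H3f3a and H3f3b lie close to 0, with single p400 arrays of H3f3a and H3f3b from -0.44 to 0.40.

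Among the variants, macroH2A, a large H2A variant linked to silent chromatin, fell in both knockdowns by all 4 of its tested probes as normalized here. The first H2afy probe (A_52_P141583) gave -0.42, -0.86, -0.56 and -0.58 on the p400 arrays (-0.61 ± 0.08, adjusted p = 0.0033). It had levels of 0.73, 0.76 and 0.48 on the Tip60 arrays, against 1.17, 1.21 and 1.17 on EGFP replicates 1, 3 and 4 (-0.53 ± 0.09, adjusted p = 0.0080). The spot of EGFP replicate 2 was flagged and left out. H2afy2 gave -0.82, -0.45, -0.82 and -0.27 (-0.59 ± 0.07, adjusted p = 0.0025). It had levels of -3.26, -3.51 and -3.63 on the Tip60 arrays, against -3.01, -3.10, -2.97 and -2.79 on the EGFP arrays (-0.50 ± 0.11, adjusted p = 0.016; 0.054 without Tip60 replicate 2 and 0.057 without Tip60 replicate 4). The other tested H2afy probe fell by 0.56 in p400 knockdown and by 0.40 in Tip60 knockdown (adjusted p = 0.0060 and 0.011). H2afy3, which RefSeq now lists as Macroh2a3, a transcribed pseudogene, fell by 0.55 in p400 knockdown (adjusted p = 0.0029) and by 0.67 in Tip60 knockdown (levels 2.17, 2.11 and 2.10 on the Tip60 arrays, against 2.75, 2.90, 2.74 and 2.81 on the EGFP arrays; adjusted p = 0.00032). No group overlapped EGFP for these probes, and the differences between the knockdowns, from -0.17 to 0.12, did not pass the test (adjusted p from 0.42 to 0.74). The Tip60 calls depended on the setting. Of the 4 falls, 3 passed the test with the deposited value table, where A_52_P141583 changed by only -0.12. With the replicate block, 1 of the 4 passed, and within slide 2, 2 of the 4 passed. Within slide 3, where Tip60 replicate 1 stood alone, the changes ran from -0.68 to -0.32.

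H2A.Z, the variant that p400-like ATPases place in nucleosomes, did not pass the test in either knockdown as normalized here. The H2afz probe gave 0.06, -0.27, 0.04 and -0.07 in p400 knockdown (-0.06 ± 0.07, adjusted p = 0.55). It had levels of 7.37, 7.34 and 7.48 on the Tip60 arrays, against 7.40, 7.65, 7.40 and 7.48 on the EGFP arrays (-0.09 ± 0.08, adjusted p = 0.49). With p400 arrays centred on their medians and no loess, the H2afz probe was called lower, at -0.42. The second probe named H2afz maps on mm7 to chromosome 6 and not to chromosome 3, and was not tested. H2afv, the second H2A.Z gene, also missed the threshold (-0.10 ± 0.08 in p400 and -0.14 ± 0.06 in Tip60 knockdown), except that it was called lower at -0.45 with that centring and at -0.35 in Tip60 knockdown relative to the array median. Both genes were read from scaled-up spots. H2afx, whose product is phosphorylated at DNA breaks, rose by 0.32 ± 0.06 in p400 knockdown (ratios 0.23, 0.38, 0.32 and 0.35; adjusted p = 0.013). It changed by -0.04 (adjusted p = 0.70) with the arrays centred on their medians and no loess, and lost the call without p400 replicate 2 (adjusted p = 0.077) or 4 (0.052). In Tip60 knockdown its change was 0.12 ± 0.05 (adjusted p = 0.17).

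The 5 probes of H3f3a and H3f3b, which encode the H3 variant deposited outside S phase, had fitted changes from -0.10 to 0.07 in p400 knockdown (adjusted p from 0.43 to 0.84) and from -0.16 to -0.07 in Tip60 knockdown (adjusted p from 0.13 to 0.58), except that all 5 were called lower in p400 knockdown with median centring and no loess and 3 of 5 in Tip60 knockdown relative to the array median. H2afj fell by 0.26 in p400 knockdown by A_52_P286488 (adjusted p = 0.034), a call that was lost without any 1 of p400 replicates 2, 3 and 4 (adjusted p from 0.068 to 0.20). Its other probe was not called in either, and was saturated on 2 single-colour arrays, as was the H1fx probe A_52_P748854, so their Tip60 changes are not given.

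Linker histone variants gave mixed probes. H1f0, a linker histone of resting and differentiating cells, fell by 0.64 and 0.61 in p400 knockdown by 2 probes that overlap in the genome (mm7 chr15:79112458-79112516 and chr15:79112452-79112511; ratios of the first -1.23, -0.18, -0.82 and -0.33; adjusted p = 0.0042 and 0.0052). The remaining probe at chr15:79112179-79112238 gave 0.03 (adjusted p = 0.78). In Tip60 knockdown no H1f0 probe passed the test. The first had levels of -3.17 and -2.97 on the Tip60 arrays, against -5.13 and -5.31 on the EGFP arrays of slide 2, and of -2.90 on the Tip60 array, against -2.97 and -3.01 on the EGFP arrays of slide 3.

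H1foo, the oocyte linker histone, rose by 0.36 ± 0.08 in p400 knockdown (ratios 0.61, 0.33, 0.32 and 0.19; adjusted p = 0.016; 0.084 without p400 replicate 2) and was not called in Tip60 knockdown (0.21 ± 0.16). H1fnt, the spermatid linker histone, gave 0.06 ± 0.06 in p400 knockdown and was too dim to test in Tip60 knockdown. The 2 H1fx probes rose by 0.30 and 0.54 in p400 knockdown (adjusted p = 0.023 and 0.018), the second with ratios of 1.45, -0.31, 1.90 and -0.88 that followed the dye. Both calls were lost without some p400 replicates (adjusted p 0.064 without replicate 1 and 0.15 without replicate 2 for the first, 0.067 without replicate 2 and 0.060 without replicate 3 for the second).

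**Figure D4:**
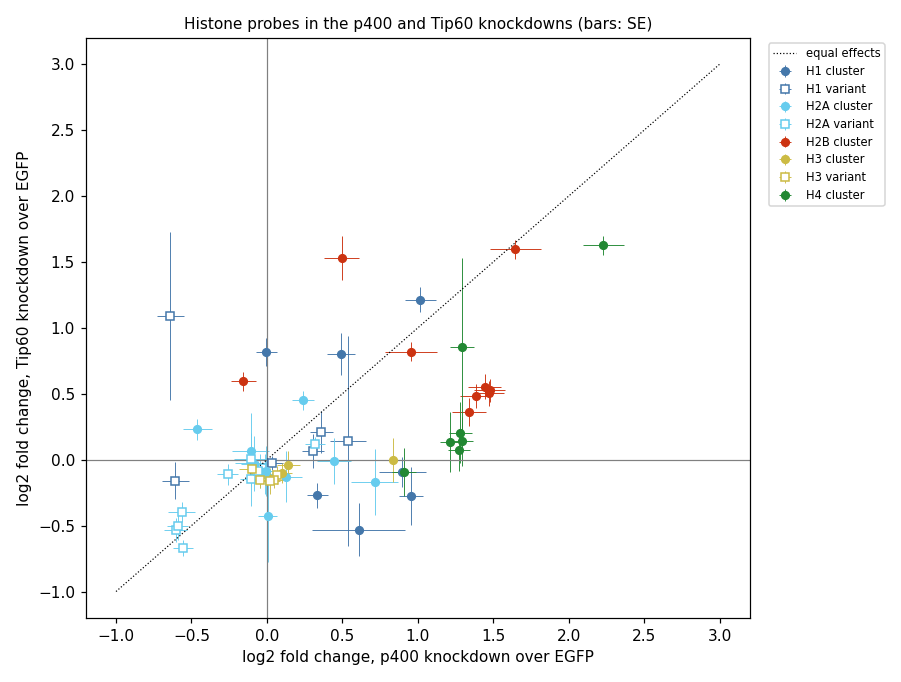
Log2 fold change of each member probe tested in both knockdowns, p400 on the x axis and Tip60 on the y axis, with bars of 1 SE, filled circles for cluster genes and open squares for variants. H2B probes lie above 0 on the y axis, most H4 probes lie near 0 on it and right of 0 on the x axis, and macroH2A probes lie together below 0 on both axes.

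Knockdown, array colour, normalization and slide all changed together between the p400 and Tip60 comparisons. A difference in knockdown effect thus cannot be told apart from one in measurement. The fitted p400 and Tip60 effects differed for 11 of the 58 member probes tested for it. On the array this held for 3.44% of the 25133 probes tested (p400 effect higher on 1.99%, Tip60 effect higher on 1.46%). All 11 were cluster probes: the p400 effect was the higher on 8 (Hist1h1a, Hist1h2ba, the 2 of Hist1h2bk, Hist1h2bm, Hist3h2bb, Hist1h4a and Hist2h4) and the Tip60 effect on 3 (Hist1h1d by A_51_P501260, Hist2h2be and Hist3h2a by A_52_P615375). With the deposited value table for both fits, the calls of Hist1h1d (-0.18, adjusted p = 0.36) and Hist2h2be (-0.42, adjusted p = 0.075) were lost. Of the 8, 5 are H2B probes, and 3 of these share the printed letters. No variant probe was called in the difference, and 2 of 20 had an unadjusted p under 0.05 by limma's estimates.

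Upstream sequence was available from RefSeq (GRCm38.p6) for 40 member genes, of which 29 are cluster genes and 11 variants. In the 250 bases before the start, the letters CCAAT, on either strand, occurred in 25 of 29 cluster genes and 6 of 11 variants, against 34.5% of 27025 promoters. TATAAA occurred in 16 of 29 and 1 of 11 (13.0% of all), and ATTTGCAT, the octamer letters known from H2B promoters, in 9 of 29 and 1 of 11 (1.61% of all). Cluster genes with ATTTGCAT were the H2A genes Hist1h2aa, Hist1h2ab, Hist1h2ac, Hist1h2ae, Hist2h2ac and Hist3h2a and the H2B genes Hist1h2ba, Hist1h2bk and Hist1h2bm. The windows of Hist1h2aa and Hist1h2ba overlap on opposite strands, so a match there can count for both genes. The promoters of 3 genes that rose in both knockdowns by a probe sharing at most 8 bases in a row with any other member are printed, with CCAAT and TATAAA matches on either strand in capitals: Hist1h1c at chr13:23738557-23738806 (plus), Hist1h4i at chr13:22041363-22041612 (minus) and Hist3h2ba at chr11:58948661-58948910 (plus).
Hist1h1c: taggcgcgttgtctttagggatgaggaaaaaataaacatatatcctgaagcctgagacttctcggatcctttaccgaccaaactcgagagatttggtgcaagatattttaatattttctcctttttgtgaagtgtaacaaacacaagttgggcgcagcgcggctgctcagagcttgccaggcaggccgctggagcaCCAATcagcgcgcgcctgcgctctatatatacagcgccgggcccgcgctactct
Hist1h4i: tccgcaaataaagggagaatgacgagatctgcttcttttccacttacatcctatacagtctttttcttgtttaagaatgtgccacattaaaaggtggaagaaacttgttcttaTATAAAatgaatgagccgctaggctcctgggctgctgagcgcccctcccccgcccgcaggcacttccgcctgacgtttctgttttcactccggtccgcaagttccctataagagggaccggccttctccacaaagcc
Hist3h2ba: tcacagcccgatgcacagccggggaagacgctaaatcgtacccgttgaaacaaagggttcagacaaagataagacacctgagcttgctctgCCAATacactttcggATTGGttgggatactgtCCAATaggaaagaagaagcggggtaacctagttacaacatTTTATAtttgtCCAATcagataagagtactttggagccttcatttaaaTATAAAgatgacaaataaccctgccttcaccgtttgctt
CCAAT occurred 1 time in the Hist1h1c window, 0 times in that of Hist1h4i and 4 times in that of Hist3h2ba. TATAAA occurred 0, 1 and 2 times in the same windows.

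Genes whose products make and carry histones were counted beside the histone genes. Of 21 genes for histone mRNA processing and transcription, 3 rose and 2 fell in p400 knockdown: the cyclin E genes Ccne2 by 0.55 and Ccne1 by 0.25 and the transcription factor gene E2f1 by 0.26, against Cdk2, the kinase partner of cyclin E, at -0.61 and Zfp473, a factor of histone mRNA 3′ processing, at -0.31. In Tip60 knockdown Ccne2 rose by 0.50 and Lsm11, a subunit of the U7 snRNP that cuts histone mRNA ends, fell by 0.21. Of 23 histone chaperone genes, 4 rose and 4 fell in p400 knockdown (Nap1l1 0.40, Asf1a 0.27, Supt6 0.27 and Ipo4 0.23; Anp32e -0.64, Hat1 -0.45, Atrx -0.39 and Chaf1b -0.31). Anp32e, which removes H2A.Z from nucleosomes, Hat1, which acetylates new H4, and Atrx, which deposits the H3 variant of H3f3a and H3f3b, also fell in Tip60 knockdown, by 0.38, 0.24 and 0.29. Of 23 DNA replication genes, Rpa2 rose by 0.27 and Rrm2, Tyms and Cdc45 fell by 0.39, 0.27 and 0.23 in p400 knockdown, and none passed the test in Tip60 knockdown by limma (2 of 23 at an unadjusted p under 0.05). The medians of the 3 lists lay between -0.10 and 0.03 in both knockdowns, and 17 of these 67 genes in p400 and 5 in Tip60 knockdown were called, where 33.1% and 22.7% of all probes were. Adjusted p values of the genes named ranged up to 0.044 in p400 and 0.048 in Tip60 knockdown. Of those called in p400 knockdown, E2f1 lay above EGFP on 2 of the 4 p400 arrays, Ccne1 on 3 and Atrx on 1. The rest had all 4 arrays on the side of the call. The p400 count was 4 without p400 replicate 2 and 7 without replicate 3 or 4. The Tip60 count was 2 without Tip60 replicate 1 or EGFP replicate 2, 4 without EGFP replicate 3 and 3 without any 1 of the others.

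Markers of other cells moved in the same samples. All 5 tested markers of the 2-cell-like state (Zfp352, Zscan4c, Tcstv3, Tcstv1 and Usp17la), which some embryonic stem cells enter, rose in both knockdowns, with medians of 4.29 in p400 and 2.60 in Tip60 knockdown. Their summed normalized intensity was 237000 to 501000 in p400 RNA, against 13800 to 27600 in the EGFP RNA of the same arrays. Their summed level relative to the 75th percentile was 223 to 237 on the Tip60 arrays, against 38.1 to 42.6 on the EGFP arrays. None was at background in EGFP RNA, and their part in the histone changes was not tested. Of 5 tested fibroblast markers 3 rose in p400 knockdown (Thy1 1.43, Col1a1 0.80, Col1a2 0.49) and 2 in Tip60 knockdown (Thy1 1.25, Pdgfrb 0.48). Their summed level was 4210 to 4800 in p400 RNA, against 2150 to 2680 in EGFP RNA, and 4.63 to 4.88 on the Tip60 arrays, against 3.12 to 3.38 on the EGFP arrays. Dcn and Lum were too dim to test. No tested spermatid marker (Prm1, Prm2, Tnp1 and Tnp2 in p400, without Prm2 in Tip60 knockdown) passed the test by limma (0 at an unadjusted p under 0.05), and Acrv1 and Odf1 were too dim to test. Their summed level was 681 to 906 in p400 RNA against 712 to 771 in EGFP RNA and 0.147 to 0.285 on the Tip60 arrays against 0.159 to 0.265 on the EGFP arrays. These values stand beside the rises of the probes named for the testis genes Hist1h2ba and Hist1h1t. The signal of the Hist1h2ba probe cannot be read as that of the testis gene alone.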

How the data were processed

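RNA of E14 cells was measured on Agilent mouse arrays and read with Feature Extraction 9.5.1.1, per the file headers. The deposited files give spot intensity and background intensity, a processed intensity (background-subtracted by the authors' scanner software, and dye-normalized on 2-colour arrays) and a log10 ratio. The authors' deposited value table holds log2 values whose normalization is not given in the sources used here, with medians near 0 for the 2-colour arrays, and served as an alternative. Its 2-colour columns correlated with the scanner's red over green ratio at 0.816, -0.815, 0.823 and -0.797 in replicates 1 to 4, so by the labelled dyes they run p400 over EGFP.

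The 2-colour arrays were background-corrected (normexp, offset 50) and loess-normalized, and fitted with a dye term. Single-colour processed intensity was log2-transformed and counted from the 75th percentile of the array. limma 3.58.1 in R 4.3.3 tested probes that 3 or more arrays of 1 of the RNAs had well above background, with Benjamini-Hochberg adjustment over all of them and a threshold of 0.05. The 1639 control spots and outlier flags were left out. The difference between the effects was tested from both estimates and their SEs. The p400 and Tip60 comparisons share no array, and this test takes them as independent. They also differ in array colour, normalization and slide, which the test does not separate from the knockdown. The code was tested on simulated data. The number of arrays limits the precision.

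Named were all variant genes, the 8 largest rises and falls of cluster genes in each knockdown with arrays or groups apart, genes called in opposite directions or in the difference, germ-line histone genes, and up to 4 genes each way of every other list. Other members were named after their values were seen, so that each is accounted for. Members, lists and tests were chosen with earlier results of these data known. Probe positions are on mm7, per the file headers, and promoters on GRCm38.p6 from RefSeq. Alternatives covered background, normalization, dye term, filter, slide, replicate block, probes per gene, fold size and each replicate left out.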

Additional observations from a re-analysis of the deposited data

Results flagged for a closer look

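In 13 of 127 groups of 4 arrays, the highest or lowest array stood apart from the other 3 by Dixon's test, where chance gives about 1 in 20. Tip60 replicate 3, which the Tip60 comparison leaves out, was the array apart for H1f0 (A_52_P550932) at 7.96, against -2.64 to -2.39 on the other Tip60 arrays, for H2afj (A_52_P286488) at 2.89, against -0.845 to -0.623, for Hist1h2bc (A_52_P559748) at -1.98, against -3.99 to -3.83, and for Hist2h2be at -3.09, against -2.95 to -2.93. Tip60 replicate 2 stood apart for H1fx (A_52_P748854) at 8.96, against 6.36 to 6.69, for Hist1h4f at 7.95, against 5.39 to 5.47, for Hist1h2ba at 1.55, against 1.36 to 1.39, and for Hist3h2bb at 2.86, against 2.65 to 2.67. Tip60 replicate 4 stood apart for H3f3a (A_52_P76734) at 6.38, against 6.31 to 6.32.

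Among EGFP arrays, replicate 3 stood apart for H1fx (A_52_P748854) at 8.87, against 6.47 to 6.88, replicate 2 for H3f3b (A_51_P164667) at 6.97, against 6.76 to 6.77, replicate 1 for Hist1h1d (A_51_P501260) at -5.57, against -5.24 to -5.2, and replicate 4 for Hist2h2be at -3.7, against -3.49 to -3.44. The H1fx probe was saturated on 2 single-colour arrays.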

How the results depend on the processing

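Of the values of named probes under other settings, 496 of 545 in p400 knockdown, 776 of 823 in Tip60 knockdown and 37 of 42 for the difference kept their side of the threshold, and called values among them kept their direction. These counts do not follow the sign of values called in neither setting. With p400 arrays centred on their medians and no loess, which moved the median of all tested probes to -0.0978, H1f0 (A_52_P442234) at -0.27, H2afx at -0.036, H3f3a at -0.28 (A_52_P1041253) and -0.30 (A_52_P76734) and H3f3b (A_52_P61786) at -0.34 reversed, 25 histone probes in place of 8 were lower, the variant median was -0.42, and 44 in place of 17 genes of the processing, chaperone and replication lists were called. The lower calls in p400 knockdown numbered 3 with arrays scaled to a common spread, 3 with 1 probe a gene name and 4 at 1.5-fold or more. The list genes called in p400 knockdown numbered 10 with the deposited log ratio, 10 with an offset of 10, 4 with a common spread and 2 at 1.5-fold or more.

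In Tip60 knockdown, values relative to the array median, which moved the median of all tested probes to -0.208, gave 12 lower calls in place of 4, a variant median of -0.32 and 17 list genes in place of 5. Higher calls numbered 6 in place of 14 within slide 3 and 8 at 1.5-fold or more. Lower calls numbered 2 within slide 2, 0 within slide 3, and 1 at 1.5-fold or more. The variant median, -0.11, was -0.071 with the deposited value table, -0.053 within slide 2 and -0.17 within slide 3. List genes called numbered 0 within slide 2, 0 within slide 3, 2 with no filter on dim probes and 0 at 1.5-fold or more. Same-numbered Tip60 and EGFP arrays deviated with correlations of -0.259, -0.327 and -0.124. The arrays of each such pair lay on different slides, so these values cannot tell whether the numbers pair them. With the replicate block 1 lower call and 0 list genes were left. The difference was called for 19 in place of 11 histone probes with Welch-Satterthwaite degrees of freedom and for 19 with p400 arrays centred on their medians. The cause of these changes was not tested, and the fits within a slide also held fewer arrays.

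Leaving out each replicate in turn gave 20 to 26 higher and 6 to 9 lower calls in p400 knockdown, and 13 to 15 and 3 to 4 in Tip60 knockdown. The cluster median ranged from 0.61 to 0.70 and from -0.09 to 0.19, and the variant median from -0.11 to 6.2e-06 and from -0.13 to -0.08. List genes called numbered 4 to 15 and 2 to 4. Of all called probes, 54.5% in p400 and 58.2% in Tip60 knockdown were higher; this share was 29.0% with median centring, 43.2% with the deposited log ratio and 68.1% with a common spread in p400 knockdown. In Tip60 knockdown it was 20.1% relative to the array median, 44.6% with normexp and quantile normalization, 41.4% with quantile normalization alone and 45% with the deposited value table. The few arrays a group and the shared letters of cluster probes limit these values.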
